A study of Homo sapiens with 2 samples.

Results

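The genes described here are 10 members of the activator protein 1 (AP-1) and immediate-early group, chosen by symbol from the 33538 genes counted. They are the FOS family (FOS, FOSB, FOSL1 and FOSL2), the JUN family (JUN, JUNB and JUND) and 3 immediate-early genes outside AP-1 (EGR1, IER2 and IER3). Each symbol had 1 row, so all 10 were found. The study asked, from its title and design, what sets apart melanoma cells that carry an antigen and yet live through direct T cell attack. It compared 2 groups of A375, an established human melanoma line, with 1 single-cell RNA library each. The parental library held untreated cells. The persister library held residual cells after 15 days with CTLs, cytotoxic T lymphocytes that recognise the cancer-testis antigen NY-ESO-1, added anew every 3 days, and with recombinant IL-2 at 7.5 ng/mL. The labels do not say whether parental cells had IL-2. All cells were of 1 line and were lifted with trypsin before loading. With 1 library per group, the differences are those of this pair of libraries, given by size and without a test.

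AP-1 is a set of protein dimers that bind DNA through a basic leucine zipper. FOS proteins do not pair with each other and bind DNA with a JUN partner, whereas JUN proteins can also pair among themselves. Immediate-early genes are transcribed within minutes of a signal such as a growth factor, a cytokine or stress, from factors already present in the cell, and most of their mRNAs are short-lived. In melanoma with an active ERK pathway, FOSL1 is a well-known stable output of that pathway. The serum response factor, which binds CArG boxes, and CREB or ATF proteins, which bind cAMP response elements, are textbook regulators of FOS and EGR1.

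Among the members, 5 were at least 2-fold higher in the persister library, and their upstream sequences are shown first because these genes carry the largest differences. They come from RefSeq (GRCh38.p14), where 8 of the 10 members had an entry. Each run holds up to 250 bases before the annotated start, ending before the gene's start in GENCODE 29, and reads 5′ to 3′; all 5 genes lie on the plus strand. Capitals mark CArG boxes and the core of the cAMP response element, TGACG, on either strand. The windows are chr5:138465229-138465478 for EGR1, chr14:75278578-75278773 for FOS and 3 windows on chromosome 19, chr19:45467746-45467994 for FOSB, chr19:12791236-12791485 for JUNB and chr19:13150161-13150410 for IER2.
EGR1: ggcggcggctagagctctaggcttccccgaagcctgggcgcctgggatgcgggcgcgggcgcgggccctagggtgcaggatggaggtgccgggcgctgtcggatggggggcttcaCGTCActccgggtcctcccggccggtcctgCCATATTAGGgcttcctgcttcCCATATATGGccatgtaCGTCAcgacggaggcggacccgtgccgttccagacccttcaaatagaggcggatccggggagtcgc
FOS: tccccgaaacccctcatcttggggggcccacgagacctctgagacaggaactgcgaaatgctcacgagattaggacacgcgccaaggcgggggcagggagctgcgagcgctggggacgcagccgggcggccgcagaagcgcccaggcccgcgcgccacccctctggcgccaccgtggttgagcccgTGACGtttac
FOSB: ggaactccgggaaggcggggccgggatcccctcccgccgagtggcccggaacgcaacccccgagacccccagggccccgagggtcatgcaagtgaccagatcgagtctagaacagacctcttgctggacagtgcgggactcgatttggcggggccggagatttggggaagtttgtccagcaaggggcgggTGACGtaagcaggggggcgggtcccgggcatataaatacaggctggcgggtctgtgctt
JUNB: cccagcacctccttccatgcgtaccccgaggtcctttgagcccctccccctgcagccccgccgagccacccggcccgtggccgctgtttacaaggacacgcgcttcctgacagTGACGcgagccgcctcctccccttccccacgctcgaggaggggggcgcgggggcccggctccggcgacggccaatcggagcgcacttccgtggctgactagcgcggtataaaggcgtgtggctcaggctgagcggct
IER2: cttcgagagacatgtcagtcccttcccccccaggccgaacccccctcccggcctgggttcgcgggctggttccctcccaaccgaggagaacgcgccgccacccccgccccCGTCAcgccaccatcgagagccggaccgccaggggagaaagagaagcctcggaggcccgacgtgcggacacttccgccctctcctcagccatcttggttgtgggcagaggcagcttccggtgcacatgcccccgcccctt

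All 8 members with a sequence (FOS, FOSB, FOSL2, JUN, JUNB, JUND, EGR1 and IER2) held TGACG within 250 bases before the RefSeq start, against 21.2% of 35116 RefSeq promoters. EGR1 alone held CArG boxes, 2 of them at -105 to -96 and -83 to -74 from its start, against 1.16% of promoters. JUND alone held the full element TGACGTCA, which includes TGACG on both strands, against 1.65% of promoters. The AP-1 site TGACTCA was in none of the 8 windows and in 4.20% of all promoters. For GCGTGGGCG, a site of the EGR proteins, the counts were none of 8 and 0.720%. The ETS core CCGGAA was in the windows of FOSB and IER2, against 14.5% of promoters. The GAS element TTCNNNGAA, where N is any base, was in that of EGR1 alone, against 6.57%. A kappaB site was in none of the 8 windows and in 9.96% of promoters. All motifs were searched on both strands, and these matches describe letters in a fixed window. Sequence beyond it was not searched, so a motif not found here, such as a CArG box for FOS, may lie outside the window. The JUN and FOSL2 windows lie inside the GENCODE 29 gene, so their letters are not printed.

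The members' mRNAs differ in AU-rich elements, which are known to shorten an mRNA's life. The letters ATTTA occurred 5 times in the 806 bases of FOS 3′ untranslated sequence, 6 times in the 737 bases of IER3 and 0 times in the 1050 bases of IER2. At least 3 copies were found in 5 of 10 members and in 45.1% of 9351 measured genes, so at that cutoff the members as a group were near the share of all genes. At least 1 copy was in 9 of 10 members and in 72.5% of genes. The longer TATTTAT was in 7 of 10 members and in 34.8% of genes. One stretch of 30 bases is shown for each of the 2 genes densest in ATTTA, with ATTTA in capitals, from chr14:75282051-75282080 (plus strand) and chr6:30743651-30743680 (minus strand).
FOS: gttttattgtgtttttaATTTATTTAttaa
IER3: tcctaattaatATTTAtatgtATTTAtgta

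After the cell filter and removal of T cell barcodes, 10630 of 10751 parental and 6605 of 7144 persister barcodes remained, with 88110998 and 79546026 unique molecular identifiers (UMIs, 1 per captured molecule). Median depth was 7590 UMIs in a parental and 11284 in a persister cell, with medians of 5.92% and 7.53% mitochondrial UMIs. T cell barcodes, with at least 3 of 6 T cell markers, numbered 0 in the parental and 162 in the persister library. Of 10 measured melanoma markers, 2 passed 2-fold upward (MIA, from 168 to 1064 CPM, and CSPG4, from 26.7 to 79.5 CPM) and 1 downward (NES, from 92.6 to 25.5 CPM). The lineage factor SOX10 was at 99.6 and 179 CPM and MITF at 13.8 and 6.99 CPM, both named outside the rule as defining markers, while TYR had no UMI in either library and MLANA had 0 and 1. In the kept cells, 32 barcode sequences occurred in both libraries.

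Levels are counts per 1000000 UMIs (CPM) of all kept cells in a library, and brackets give exact 95% Poisson intervals. Reads were taken from the 3′ end, 1 UMI per molecule, so levels are not scaled by length, although capture may differ between genes. All intervals cover counting error only. In the parental library, FOSL1 led the members at 275 CPM, followed by IER3 at 226 CPM, IER2 at 163 CPM and JUND at 101 CPM. JUNB and JUN followed at 27.2 and 24.6 CPM, then FOSL2 at 4.95 CPM. FOS, EGR1 and FOSB stood last at 2.80, 2.72 and 2.34 CPM, and the intervals of neighbours in that trio overlapped. The persister order was different at the top and at the bottom. IER2 led at 639 CPM, ahead of FOSL1 at 473 CPM, IER3 at 230.0 CPM, JUND at 175 CPM and JUNB at 149 CPM. EGR1 had moved up to the sixth place at 67.4 CPM. JUN was at 19.3 CPM, FOS at 12.0 CPM, FOSB at 11.1 CPM and FOSL2 at 5.85 CPM, and of all neighbours in this order only FOS and FOSB had overlapping intervals.

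**Figure D1:**
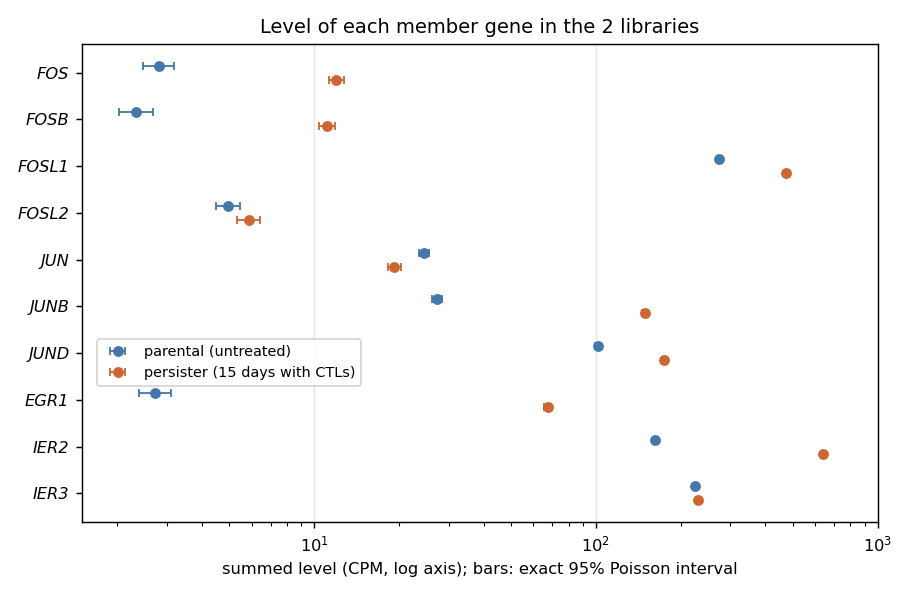
Level of each of the 10 genes in the parental (blue) and persister (orange) library, in CPM on a log axis, with exact 95% Poisson intervals. EGR1 shows the widest gap, from 2.72 to 67.4 CPM, JUN is the only gene whose persister point lies to the left, and the IER3 points nearly coincide.

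Counted against a threshold of 2-fold, 5 of 10 members (FOS, FOSB, JUNB, EGR1 and IER2) were higher in the persister library and 0 were lower. The background was taken from all 9938 genes that reached 5 CPM in a library: 10.1% of them passed 2-fold upward and 10.8% downward. All 10 members passed that minimum, although FOS, FOSB, FOSL2 and EGR1 did so through the persister library alone. Of the called members, JUNB and IER2 passed it in both libraries. Nothing is therefore read from the members' count, or from their median that follows, beside the values of all genes. The median log2 fold, on log2(CPM + 1), was 1.28 over the members and -0.15 over all measured genes. Among all called genes 48.3% were higher, and with TMM scaling that share was 58.8%, with the median of all genes at -0.03; the same 5 members were called under that scaling.

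Among the FOS family, FOS and FOSB, the classical transient members, showed the largest ratios from the lowest levels. FOS had 247 UMIs in the parental and 954 in the persister library, a ratio of 4.28 (3.72 to 4.94). FOSB had 206 and 881 UMIs, a ratio of 4.74 (4.07 to 5.54). FOSL1, which encodes FRA1, was 1.72-fold higher (1.69 to 1.75), from 24188 to 37614 UMIs. FOSL2, which encodes FRA2, had 436 and 465 UMIs, and its ratio of 1.18 (1.03 to 1.35) was the smallest in the family. Over all kept cells the 4 intervals lay above 1, and FOS and FOSB passed 2-fold. FOSL2 did not keep its direction: it was at 0.944 (0.794 to 1.12) in cells of 5000 to under 15000 UMIs and at 1.01 (0.784 to 1.31) in MKI67-negative cells. FOSB overlaps ERCC1 on the other strand, with 12937 parental and 20186 persister UMIs, and the sources used here do not say whether counting used strand.

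In the JUN family the 3 genes went separate ways. JUNB, which can act as a weaker activator than JUN at some AP-1 sites, was 5.46-fold higher (5.23 to 5.71), from 2399 to 11835 UMIs. JUND, the most steadily expressed member in most cells, was 1.73-fold higher (1.68 to 1.77). JUN itself had 2166 parental and 1532 persister UMIs and was 1.28-fold lower, with a persister to parental ratio of 0.783 (0.733 to 0.837). JUN was thus the one member below its parental level in the summed counts. The JUN ratio was 0.849 with TMM scaling and ran from 0.772 to 0.889 over the 8 alternatives of scaling, totals and cells. Its direction depended on which cells were read: the ratio was 1.77 in cells under 5000 UMIs (1536 parental and 708 persister cells), with an interval of 1.33 to 2.34, and 1.20 (0.663 to 2.40) in cells with over 10% mitochondrial UMIs, where the parental library had 12 JUN UMIs. It was below 1 in the other 4 classes of depth and mitochondrial share. JUNB overlaps HOOK2 on the other strand, a gene with 673 and 725 UMIs.

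EGR1, a zinc finger factor induced through ERK and the serum response factor, had the largest ratio of the 10 genes. It went from 240 UMIs in 132 of 10630 parental cells to 5361 UMIs in 2651 of 6605 persister cells, a ratio of 24.7 (21.7 to 28.3). The parental level rests on few cells: 10 cells held 78 of its 240 UMIs, or 32.5%, and a single cell held 22. In the persister library the 10 cells richest in EGR1 held 2.22% of its UMIs. The EGR1 ratio was above 2 in each class of cells by depth or mitochondrial share, but its size varied: it was 9.40 (7.62 to 11.7) in cells with up to 5% and 40.5 (33.6 to 49.1) in those with over 5 to 10% mitochondrial UMIs. The parental level differed between those classes, at 6.81 and 1.67 CPM, against 64.0 and 67.5 CPM in persister cells. Over 10% mitochondrial UMIs, the parental cells held 1 EGR1 UMI, which gives a ratio of 68.3 with an interval of 12.2 to 2701.

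IER2, a nuclear immediate-early protein, was 3.93-fold higher (3.85 to 4.00), from 14340 to 50835 UMIs, and added more CPM than any other member. IER3, a stress-inducible gene known for its part in cell survival, had 19889 and 18295 UMIs. Its CPM ratio was 1.02 (0.999 to 1.04), the nearest to 1 of the 10 genes. Scaling moved it to 1.10 with TMM and 1.08 with median-of-ratios factors. It was 1.27 (1.19 to 1.35) in cells with up to 5% mitochondrial UMIs and 1.21 (1.16 to 1.27) in cells of 15000 UMIs or more, and 0.985 (0.960 to 1.01) in cells of 5000 to under 15000 UMIs.

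Most of the T cells' own RNA had been set aside with their barcodes. The 6 T cell markers of that filter summed to 2.87 CPM in the parental library and 6.24 CPM in the kept cells of the persister library, against 2953 CPM in the T cell barcodes. Of the 18 T cell markers outside the filter, 5 had no UMI in the parental library and 0 in the persister library, and their sums were 35.1 and 20.5 CPM. That parental sum was mostly IL7R at 31.3 CPM. For 9 of these markers with at least 100 CPM in T cell barcodes, the persister excess over parental was 0.0395% to 1.00% of the T cell barcode level, with a median of 0.105%. At the highest of these shares, T cell RNA would account for 0.661% of the persister EGR1 level, 0.195% of FOS, 0.906% of JUNB and 5.05% of JUN.

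The share of cells with a UMI was compared after each cell had been thinned to 5000 UMIs, which left 9094 parental and 5897 persister cells. Shallower cells, 1536 and 708, were left out. EGR1 was seen in 0.737% of parental (0.571 to 0.935%) and 23.9% of persister cells (22.8 to 25.0%). JUNB was seen in 12.6% and 49.4%, and IER2 in 53.3% and 92.2%. Thus IER2 reached nearly every persister cell, while EGR1 stayed a minority transcript at this depth. FOS and FOSB remained rare, with 1.21% and 5.36% for FOS and 1.07% and 5.05% for FOSB. FOSL1 was seen in 66.9% of parental and 77.2% of persister cells and JUND in 39.0% and 55.4%. JUN was in 10.8% and 7.90%, FOSL2 in 2.39% and 2.78%, and IER3 in 62.7% and 60.7%. Without thinning, which leaves in the depth gap, JUN was in 16.2% of parental and 16.4% of persister cells and IER3 in 74.5% and 79.3%; EGR1 was in 1.24% and 40.1%. No cell type here is known to lack these genes, so the background from free RNA could not be read from one.

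The 10 genes together made up a median of 4 of 5000 UMIs in a parental and 8 in a persister cell. The middle 90% of cells ran from 1 to 9 UMIs in the parental library and from 3 to 16 in the persister library. In 37.7% of persister cells (36.4 to 38.9%) the sum was above 9, the 95th percentile of parental cells, and 9.09% of parental cells had 8 or more. The distributions of the sum therefore overlapped but were shifted as a whole, as the plot of summed member UMIs shows. The members did not share this shift equally. The mean sum was 4.15 UMIs in parental and 8.74 in persister cells, and IER2 alone went from 0.829 to 3.17. FOSL1 went from 1.34 to 2.20 and JUNB from 0.138 to 0.764, while IER3 was at 1.15 and 1.16 and JUN went down from 0.122 to 0.0892. Across cells the spread relative to the mean (variance over mean) was 3.73 for EGR1 in the parental library and 1.48 in the persister library. FOSL1 went from 1.44 to 2.04, and the other members were at most 1.56 in both, where counting alone gives about 1.

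**Figure D2:**
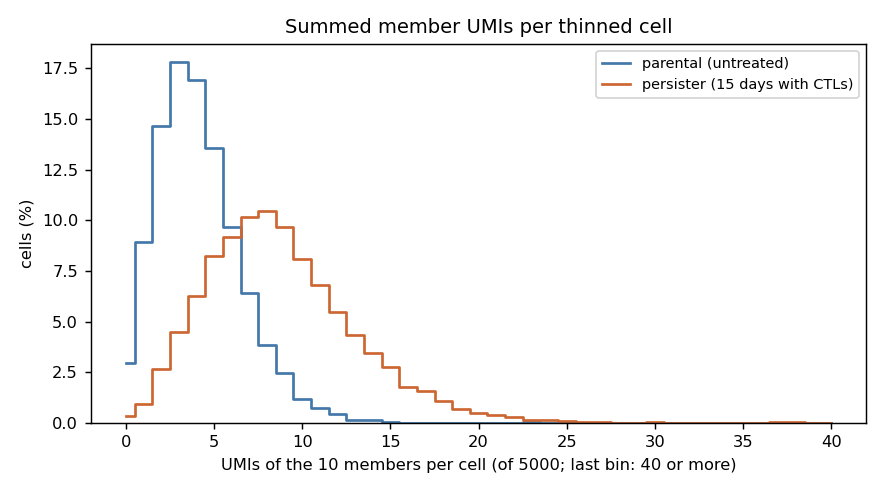
Distribution of summed UMIs of the 10 genes per cell after thinning to 5000 UMIs, as the percentage of 9094 parental (blue) and 5897 persister (orange) cells. The parental median is 4 and the persister median is 8, and the curves overlap.

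MKI67, which encodes the proliferation antigen Ki-67, split the cells into those with and without a UMI of it. MKI67-positive cells were 77.9% of parental and 43.3% of persister cells, with median depths of 8217 and 13900 UMIs, and 69.9% and 31.0% after thinning. MKI67-negative cells had 6014 and 9904 UMIs at the median, so a cell without a UMI may also be a shallow one. Within MKI67-positive cells, 6 of 10 members were at least 2-fold higher in the persister library, the 5 named above and FOSL1, against 9.76% of 9864 measured genes, and 0 were lower against 9.69%. Within MKI67-negative cells the same 5 were higher, against 10.2% of 10077 measured genes, and 0 were lower against 12.8%. In positive cells FOS, FOSB, FOSL2 and EGR1 reached the 5 CPM minimum through the persister library alone, and in negative cells FOS and FOSB did. Nothing is therefore read from these counts beside the shares of all genes. By their ratios, given next, FOS, FOSB, JUNB, EGR1 and IER2 were higher in the persister library in both states.

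The persister to parental ratio of every member was larger in MKI67-positive than in MKI67-negative cells, though for FOSB, FOSL2 and JUND the intervals overlapped. For EGR1 it was 42.6 (36.0 to 50.8) in positive and 7.60 (6.21 to 9.40) in negative cells. The size of that gap depended on how the state was read. With the state from thinned counts the EGR1 ratios were 52.9 and 12.5 (9.71 to 16.5). With positive cells taken from 2 MKI67 UMIs they were 42.8 and 13.6 (11.3 to 16.4). The parental EGR1 level in negative cells rests on 99 UMIs in 32 cells, 22 of them in 1 cell. For FOS the ratio was 4.99 in positive and 2.70 in negative cells, for FOSB 5.20 and 3.58, for JUNB 5.86 and 4.66, and for IER2 4.41 and 3.40. JUND stood at 1.73 and 1.61 and FOSL2 at 1.21 and 1.01. JUN was at 0.935 (0.863 to 1.01) in positive and 0.596 (0.523 to 0.680) in negative cells, so its lower persister level was seen beyond counting error in MKI67-negative cells only. IER3 was 1.13 in positive and 0.833 in negative cells, on opposite sides of 1, with intervals of 1.10 to 1.16 and 0.801 to 0.866. When persister levels were weighted to the parental mix of states, FOSL1 was 2.02-fold higher in place of 1.72-fold, EGR1 28.2-fold and JUN at 0.876.

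Within the parental library, EGR1 was the one member at least 2-fold higher in MKI67-negative than in MKI67-positive cells, among 8 members measured there. It reached the 5 CPM minimum only through the MKI67-negative cells where it was high, so nothing is read from its count beside the 0.0942% of 9554 genes called. No member was lower, against 0.408% of genes. Its level was 6.82 CPM in negative and 1.92 CPM in positive cells, a ratio of 3.56 (2.73 to 4.64). The share of thinned cells with EGR1 was nearly equal, at 0.767% and 0.724%, and 32 MKI67-negative cells held all 99 of its UMIs there, 22 of them in 1 cell. FOSL1 went the other way, at 195 CPM in negative and 290.1 CPM in positive cells, a ratio of 0.673 (0.647 to 0.700).

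Within the persister library, 0 members were at least 2-fold higher in MKI67-negative cells, against 0.473% of 9510 genes, and 0 were at least 2-fold lower, against 3.45%. Several were nevertheless lower in MKI67-negative cells beyond counting error. FOSL1 had 339 CPM in negative and 596 CPM in positive cells, a ratio of 0.569 (0.557 to 0.581). EGR1 had 51.9 and 81.7 CPM, a ratio of 0.635 (0.601 to 0.672), JUN a ratio of 0.684, IER2 of 0.775 and IER3 of 0.830. JUND was at 178 and 173 CPM, a ratio of 1.03 (0.995 to 1.06). By share of thinned cells, EGR1 was in 20.8% of MKI67-negative and 30.7% of MKI67-positive persister cells.

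**Figure D3:**
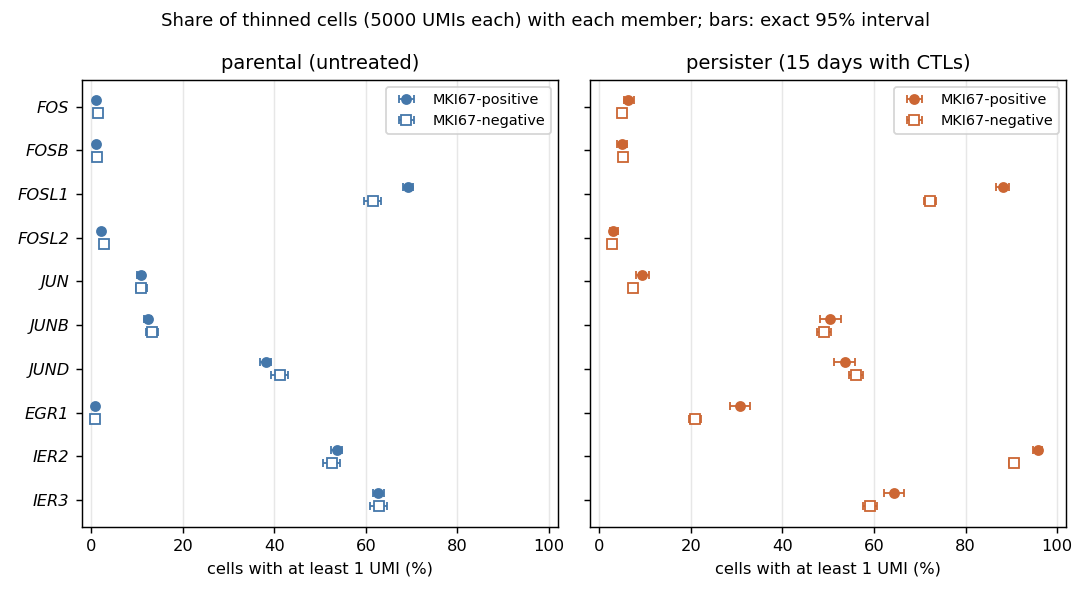
Share of cells with at least 1 UMI of each gene after thinning to 5000 UMIs, in MKI67-positive (filled circles) and MKI67-negative (open squares) cells of each library, with exact 95% intervals. In both states EGR1, JUNB and IER2 lie much further right in the persister than in the parental library. FOSL1 and EGR1 are further right in MKI67-positive than in MKI67-negative persister cells.

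The FOS and JUN families were compared as dimer partners at the level of RNA. Summed, the FOS family had 285 CPM in the parental and 502 CPM in the persister library, a ratio of 1.76 (1.74 to 1.79). The JUN family had 153 and 343 CPM, a ratio of 2.24 (2.19 to 2.29). There were 0.539 JUN family UMIs per FOS family UMI in the parental library (0.527 to 0.550) and 0.684 in the persister library (0.674 to 0.695), so FOS family transcripts outnumbered JUN family transcripts in both. The ratio differed more between the states than between the libraries: it was 0.503 in MKI67-positive and 0.799 in MKI67-negative parental cells, and 0.561 and 0.911 in persister cells.

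The make-up of the JUN family differed far more than that of the FOS family. FOSL1 held 96.5% of FOS family UMIs in the parental and 94.2% in the persister library, while FOS went from 0.985% to 2.39% and FOSB from 0.821% to 2.21%. JUNB went from 17.8% (17.1 to 18.4%) of JUN family UMIs to 43.3% (42.8 to 43.9%). JUND was the largest part in both, at 66.2% and 51.0%. JUN shrank from 16.0% (15.4 to 16.7%) to 5.61% (5.34 to 5.89%). The most frequent pair of transcripts was FOSL1 with JUND in each library, seen together in 26.0% of parental and 42.3% of persister thinned cells. FOSL1 with JUNB was seen in 8.38% and 37.8%, and FOSL1 with JUN in 7.84% and 6.58%. Any FOS family with any JUN family UMI was seen in 35.7% and 63.2% of cells, where the product of the separate shares was 35.6% and 63.1%. RNA of both families in a cell does not show a dimer.

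**Figure D4:**
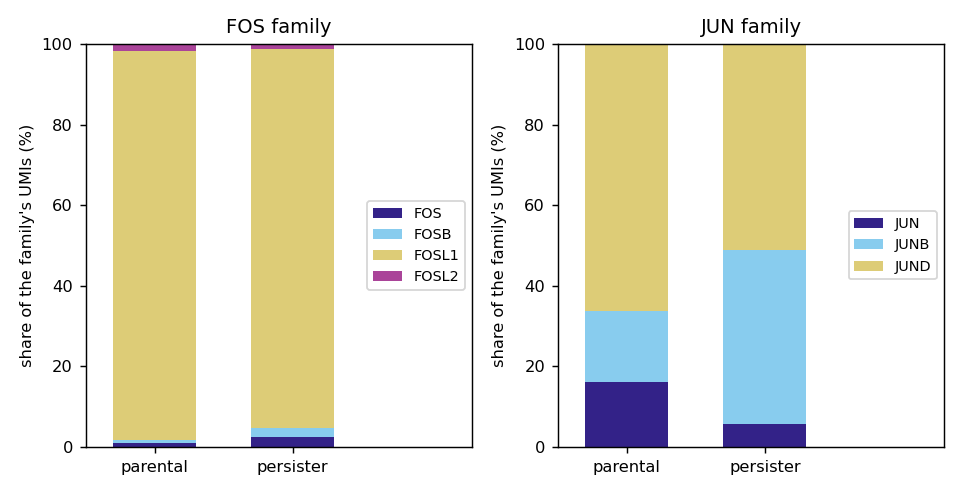
Share of each gene in the UMIs of its family, in percent, for the parental and persister library. FOSL1 fills over 94% of the FOS family in both, while in the JUN family JUNB goes from 17.8% to 43.3% and JUN from 16.0% to 5.61%.

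The measured correlations between members across cells were low. Over 9094 parental cells the highest Pearson r between members was 0.16, for FOS with EGR1, and over 5897 persister cells it was 0.17, for EGR1 with IER2, on log2(UMI + 1) of thinned cells. At this sparsity such values are no finding. With the summed members, 0 of 7390 other genes reached r of 0.2 in the parental library and 23 of 7254 did in the persister library. Mitochondrial genes, symbols that start with RPL, RPS, LINC, AC0 or AL, and symbols with a dot were left out of the ranking. Of the 5 highest ranked there, TNFRSF12A, the receptor of the cytokine TWEAK, was at 0.32. The histone genes HIST1H4C and H2AFZ were at 0.31 and 0.25, and CENPF and SMC4, which act in mitosis, at 0.25 and 0.24. Over all kept persister cells IER2 and FOSL1 held 35.9% and 26.5% of the members' UMIs, so the sum is weighted to these genes. These cells share 1 library, and no test was made.

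The other genes of the pathway were read from lists that were chosen with earlier results of these data known. In this and the following lists some genes, such as BATF2, ATF3 and DUSP5, reached the 5 CPM minimum through the persister library alone. The counts are therefore descriptions, given beside the background of 10.1% higher and 10.8% lower, and not a test of the lists. Among 12 measured basic leucine zipper partners outside the members, 6 passed 2-fold upward and 0 downward (median log2 fold 1.06). BATF2, a partner of JUN proteins, was 49.6-fold higher, from 0.511 to 25.3 CPM. ATF3, a stress-induced partner of JUN proteins, was 23.2-fold higher, from 3.52 to 81.6 CPM. MAFF, a small MAF protein, was 5.48-fold higher, from 6.17 to 33.8 CPM.

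Of 28 other measured immediate-early genes, 18 passed 2-fold upward and 2 downward (median log2 fold 1.17). NR4A1, an orphan nuclear receptor, was 16.6-fold higher, from 12.2 to 202 CPM. PPP1R15A, which restores translation after stress, was 8.47-fold higher, from 38.0 to 322 CPM, and GADD45B was 4.99-fold higher, from 10.6 to 52.9 CPM. Of 17 measured genes listed as AP-1 targets, 10 passed upward and 2 downward (median 1.36). TIMP1, a metalloproteinase inhibitor, was at 359 and 7794 CPM, AREG, a ligand of the epidermal growth factor receptor, at 13.3 and 274 CPM, and CXCL8, a neutrophil chemokine, at 7.07 and 127 CPM. These target genes also answer to other factors, and their part in AP-1 activity was not tested.

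The kinases upstream showed little of this at the RNA level. Of 20 measured, 1 passed 2-fold upward and 0 downward (median log2 fold 0.02). RPS6KA3, which encodes the kinase RSK2 downstream of ERK, was at 70.7 and 146 CPM, a ratio of 2.06. HRAS was at 175 and 93.7 CPM and MAP2K2, which encodes MEK2, at 104 and 63.6 CPM. Among 13 promoter factors and cofactors, 0 passed upward and 1 downward (median 0.38). MKL2, a cofactor of the serum response factor, was 2.18-fold lower, at 12.2 and 5.58 CPM, while CREB1 was at 17.3 and 28.3 CPM and ELK3, a ternary complex factor, at 76.0 and 118 CPM. Phosphorylation, by which these proteins are mostly controlled, is not measured by RNA.

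Genes listed as induced by ERK signalling, only some of which are known to feed back on it, were divided. Of 11 measured, 3 passed 2-fold upward and 1 downward (median log2 fold 0.49). PHLDA1 was 5.35-fold higher, from 181 to 971 CPM, and DUSP5, a nuclear ERK phosphatase, was 4.35-fold higher, from 4.32 to 18.8 CPM. SPRY1, an inhibitor of receptor tyrosine kinase signalling, was 16.4-fold lower, from 21.8 to 1.33 CPM.

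Heat-shock genes stood the other way from the members. Immediate-early and heat-shock genes are both known to respond to cell detachment and handling. Of 15 measured heat-shock genes, 0 passed 2-fold upward and 11 downward (median log2 fold -1.26), and their summed level was 11330 CPM in the parental and 5095 CPM in the persister library. HSPA8, a constitutive chaperone, was at 1284 and 119 CPM. HSPA1A was at 45.3 and 1.68 CPM and HSPA1B at 24.7 and 1.61 CPM, near-identical genes whose separate counts are uncertain. The part of handling in the members' differences was not tested, and with 1 library per group handling and treatment cannot be told apart.

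**Figure D5:**
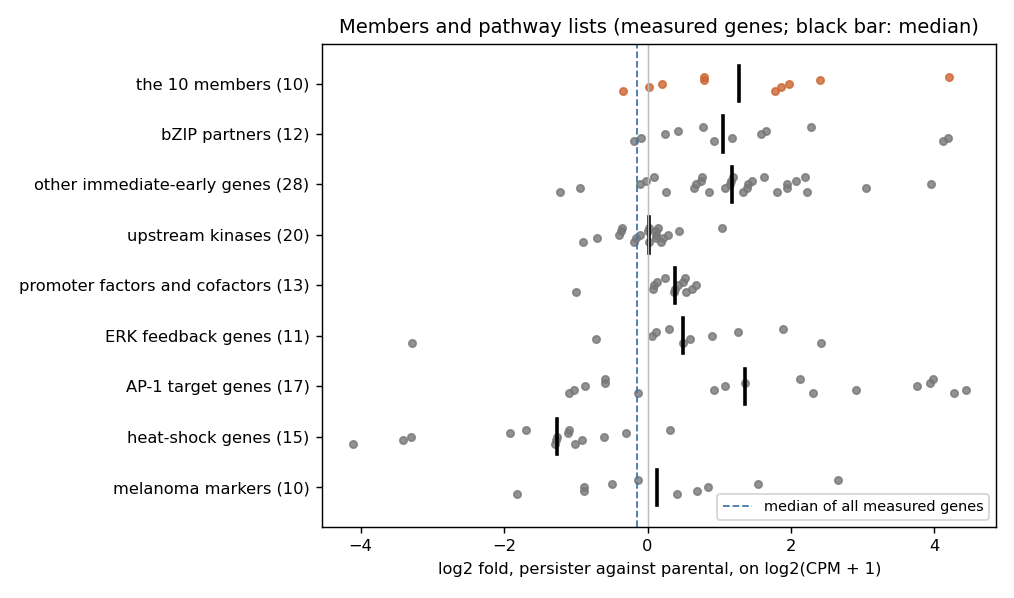
Log2 fold of persister against parental on log2(CPM + 1) for the 10 members (orange) and the measured genes of each list (grey), with black bars at the medians and a dashed line at the median of all measured genes (-0.15). The medians of the members, the basic leucine zipper partners, the other immediate-early genes and the AP-1 targets lie between 1.06 and 1.36, upstream kinases lie at 0.02 and heat-shock genes at -1.26.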

How the data were processed

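The Chromium 3′ v3 single-cell libraries, 1 parental and 1 persister, were read as deposited UMI counts per gene and barcode, whole numbers that are not normalized, per the file headers. The submitters' processing notes name Cell Ranger 3.1.0 and GRCh38, and the sources used here give no annotation release. A barcode entered with 500 or more genes, 1000 or more UMIs, no more than 20% mitochondrial UMIs and fewer than 3 of 6 T cell markers (CD2, CD3D, CD3E, CD52, PTPRC and TRAC). No doublets were removed. UMIs were summed per library and scaled to CPM; a gene counted as measured from 5 CPM in one library or the other, and as called from 2-fold. Intervals are 95% exact Poisson (levels), Clopper-Pearson (shares) and conditional binomial (ratios). Cells were thinned to 5000 UMIs (seed 20, numpy 2.4.6). Positions are from GENCODE 29, matched by ID for 33456 of 33538 genes, all 10 members included. Steps were tested on simulated data. Alternatives used the TMM factors of edgeR 4.0.16, the size factors of DESeq2 1.42.0, other totals, cell filters, minimums and thinning depths. The named genes are the 10 members and up to 3 measured genes per list with the largest absolute log2 fold. Up to 5 ranked genes per library with the highest correlation of at least 0.2 are also named. Members and lists were chosen with earlier results of these data known.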

Additional observations from a re-analysis of the deposited data

Results flagged for a closer look

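For EGR1 and IER3 the MKI67 contrast lay on opposite sides of 1 in the 2 libraries with all counting intervals clear of 1, before and after thinning. The EGR1 level in MKI67-negative cells relative to MKI67-positive cells was 3.563 in the parental and 0.6353 in the persister library, and for IER3 it was 1.129 and 0.8303. On cells thinned to 5000 UMIs, EGR1 was at 2.66 and 0.631 and IER3 at 1.07 and 0.871. The values of FOS, FOSB, JUN, JUNB and IER2 also lay on opposite sides of 1 without thinning, with at least 1 interval that included 1 before or after it. JUNB came nearest, at 1.13 (1.02 to 1.26) and 0.902 (0.870 to 0.935), and its parental value on thinned cells was 1.07 (0.951 to 1.21). The difference between libraries was not tested, since each has 1 library. The parental EGR1 value rests on 99 UMIs in 32 MKI67-negative cells, with 22 UMIs in 1 of them. Counting intervals treat UMIs as independent, while parental EGR1 had a variance over mean of 3.73 across thinned cells. By share of thinned parental cells the states were nearly equal. EGR1 was in 0.767% of MKI67-negative and 0.724% of MKI67-positive cells, and IER3 in 62.8% and 62.7%. In persister cells the shares were 20.8% and 30.7% for EGR1 and 59.1% and 64.3% for IER3.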

How the results depend on the processing

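The same 5 members were at least 2-fold higher and 0 lower under all 8 alternatives of scaling, totals and cells, and the count stayed at 5 with a minimum of 1 CPM or 1 UMI. With 1 CPM, 1564 genes were higher and 1636 lower in place of 1001 and 1070, and with 1 UMI 4902 and 4844. The FOS family ratio (1.76) was 1.91 with TMM scaling, 1.88 with median-of-ratios scaling, 1.79 without mitochondrial UMIs in the totals, 1.80 with at least 2000 genes and at most 10% mitochondrial UMIs, and 1.80 as a mean over cells. The JUN family ratio (2.24) was 2.43 with TMM, 2.38 with median-of-ratios scaling and 2.29 over all deposited barcodes. Thinned to 3000 UMIs, FOS family UMIs were in 51.7% of parental and 66.9% of persister cells and JUN family UMIs in 36.3% and 62.4%; not thinned, the shares were 77.2% and 89.8%, and 65.7% and 90.4%. Within MKI67-negative cells the FOS family ratio (1.76) was 1.68 with the state read from thinned counts. Classes of depth and mitochondrial share were added after seeing the data. Across them the FOS family ratio was 2.34, 1.58, 1.87, 1.90 and 1.82 in cells under 5000 UMIs, of 5000 to under 15000 UMIs, with up to 5%, over 5 to 10% and over 10% mitochondrial UMIs, and the JUN family ratio was 2.33 in cells under 5000 UMIs. FOSL1 (2.20) and FOSL2 (3.00) passed 2-fold in cells under 5000 UMIs and JUND (2.02) in those with up to 5% mitochondrial UMIs, FOSL2 was at 0.944 in cells of 5000 to under 15000 UMIs, and FOSB had no parental UMI in cells over 10% mitochondrial. FOS was at 13.8 (2.43 to 550.2) in the last class from 1 parental UMI, against 4.28 overall. The cause of these shifts was not tested. No paired analysis was possible because each group has 1 library. A count of 0 allows 3 UMIs, or 0.0340 CPM parental and 0.0377 CPM persister.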

Other observations

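The 162 T cell barcodes of the persister library (median 3568 UMIs) had another AP-1 profile than the melanoma cells around them. JUND led at 555 CPM (507 to 608), in 84.6% of these barcodes without thinning, and JUN was at 97.1 CPM (77.3 to 120), in 33.3%. FOS had 2 UMIs and FOSB 7. FOSL1 was at 308 CPM, in 27.2% of barcodes, EGR1 at 44.4 CPM and IER2 at 449 CPM. There were 2.37 JUN family UMIs per FOS family UMI (2.06 to 2.73). These barcodes also held melanoma RNA, with MIA at 440 CPM, and its part in the values was not tested. The parental library held 0 T cell barcodes, so there is no group to compare them with.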
